A study of Mus musculus with 6 samples.

Results

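The cornified envelope is the cross-linked protein shell that replaces the plasma membrane of a keratinocyte as it dies to form the outer skin barrier. Most of its precursors are encoded side by side in the epidermal differentiation complex, a cluster that holds involucrin, loricrin, the small proline-rich (Sprr) proteins, the late cornified envelope (Lce) proteins, the filaggrin-type proteins and many calcium-binding S100 proteins. Transglutaminases join these precursors, and proteases such as Asprv1 and Casp14 process filaggrin. The 57 genes described here were chosen by name, and all 57 were found among the 55416 genes of the count table. They comprise 6 filaggrin-type genes, 13 Sprr genes, 18 Lce genes, 9 S100 genes and 11 other envelope genes.

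RNA was sequenced from primary mouse keratinocytes of 3 Cebpb knockout and 3 wild type libraries. Cebpb encodes the transcription factor C/EBPβ, and the cells came from pups 1 to 2 days old on a C57BL/6J:129 hybrid background. All 6 cultures, wild type included, received UVB (312 nm lamp, dose 10 mJ/cm2) 5 days after plating and were collected 8 h later, so every value compares genotypes after UVB. Calcium was kept at 0.05 mM, a level at which keratinocytes hold back from differentiating fully. The labels name no Cre or clone and do not tell whether replicates are separate animals or cultures. The p-values therefore cover only the spread among these samples, which may be technical.

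Total counts ran between 81256192 and 92987497 in the knockout libraries and between 107757415 and 122797031 in the wild type libraries. Cebpb had 78, 109 and 78 counts in knockout libraries and 18184, 17628 and 12036 in wild type libraries. The keratinocyte marker Krt5 was abundant in both genotypes, at 11537 ± 275 CPM (counts scaled to library size) in knockout cells and 19824 ± 1265 CPM in wild type cells (SD, n = 3 each). The 7 keratinocyte markers summed to between 20533 and 21651 CPM in the knockout libraries and between 35245 and 40064 CPM in the wild type libraries. Of the 7, 6 fell, while Itgb4 rose, at 547 ± 29.4 CPM in knockout and 382 ± 34.3 CPM in wild type cells. Melanocyte markers summed to between 607 and 688 CPM in knockout and between 695 and 783 CPM in wild type libraries, with 5 of 7 lower. Over all genes tested, 23.7% were called lower and 24.8% higher. Fibroblast markers reached at most 5.62 CPM in knockout and 7.95 CPM in wild type libraries, and immune markers at most 1.06 and 1.91 CPM, and Lum and Cd3e had no count in any library. Of the immune list, Lyz2 fell (log2 fold change -4.59, knockout over wild type), while Cd74 (1.13) and Trdc (3.80) rose. Each was at 1.46 CPM or less in every library, and the other immune markers were not tested. Endothelial markers reached at most 6.10 CPM in knockout and 7.96 CPM in wild type libraries, with Cdh5 and Emcn at 0 counts, and hair follicle markers at most 3.22 and 6.37 CPM, with Krt35 at 0 counts. Of the Merkel cell list, Krt18 and Piezo2 rose, while Krt20 and Atoh1 were not called, and the list summed to between 405 and 517 CPM in knockout and between 62.9 and 65.0 CPM in wild type libraries. Nearly all of that sum was Krt18, at 451 ± 57.2 CPM in knockout and 62.9 ± 1.19 CPM in wild type cells. Transcripts of 4 Y-linked genes summed to between 0.101 and 0.158 CPM in knockout libraries and between 60.7 and 68.1 CPM in wild type libraries, so sex and genotype cannot be told apart here. The part of these marker and sex differences in the results below was not tested.

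Envelope genes outside the S100 family were far lower in knockout cells. Of the 57 members, 56 passed the filter on low counts, and 48 of these fell, 5 rose and 3 were not called by edgeR's quasi-likelihood test at a Benjamini-Hochberg adjusted p under 0.05. Over all 17659 genes tested, 23.7% were called lower and 24.8% higher. The fall reached at least 1 log2 unit in 44 members, at least 2 in 32 and at least 3 in 16, where 5.94%, 2.22% and 0.974% of all genes tested fell that far. All 48 that fell did so without overlap between genotypes, as 27.6% of all genes tested were lower without overlap. The median log2 fold change, knockout over wild type throughout, was -2.32 over the tested members and 0.01 over all genes tested. In bulk RNA, fewer cells that express a gene and less of its RNA per cell cannot be told apart. The untested member was S100a4, an S100 gene of mesenchymal cells, with 1, 2 and 1 counts in knockout libraries and 0, 0 and 4 counts in wild type libraries.

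The 48 members outside the S100 family together took 0.251%, 0.328% and 0.256% of all counts in the knockout libraries, against 1.35%, 1.17% and 1.18% in the wild type libraries. S100 members instead took 0.473%, 0.486% and 0.521% in the knockout libraries and 0.380%, 0.366% and 0.378% in the wild type libraries. The groups did not overlap in either measure. Summed over each family in CPM, Sprr genes stood at 648 ± 124 in knockout and 3675 ± 607 in wild type cells, Lce genes at 48.2 ± 12.7 and 517 ± 76.0, and filaggrin-type genes at 66.2 ± 9.50 and 159.7 ± 8.02. The other envelope genes summed to 1840 ± 275 CPM in knockout and 8875 ± 620.2 CPM in wild type cells, and S100 genes to 4606 ± 294 CPM in knockout and 4018 ± 133 CPM in wild type cells (SD, n = 3 each).

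**Figure D1:**
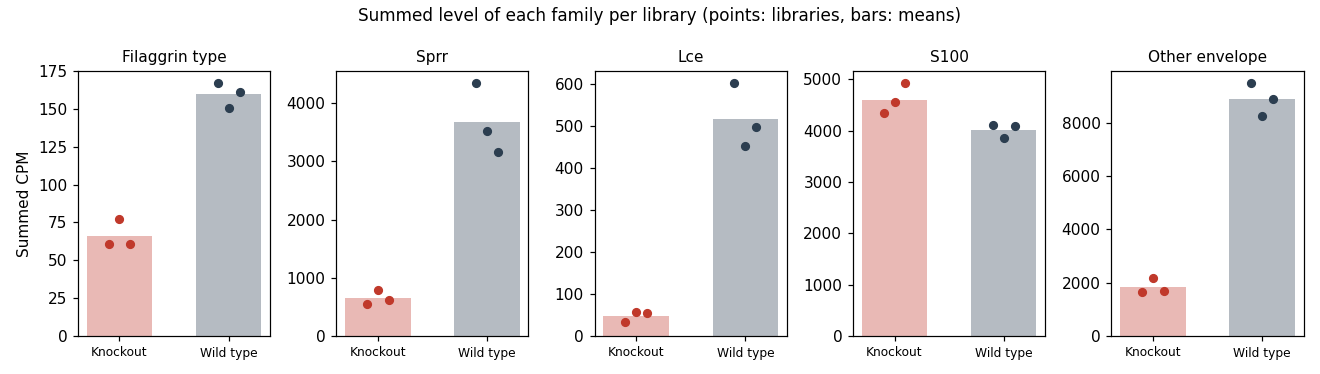
Summed level of each family in TMM-scaled CPM (trimmed mean of M values) per library, with points for the 3 knockout and 3 wild type libraries and bars for their means. Knockout libraries lie below all wild type libraries in 4 families, and above them in the S100 family, where they span 4340 to 4921 CPM against 3865 to 4102 CPM.

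Promoter sequences of 5 members are shown because they carry the contrasts described below: Lor had a log2 fold change of -3.63, Sprr1a of -1.96 and Ivl of -0.23, and Lce1g and Lce3c stand for both Lce subfamilies. Each runs 5′ to 3′ on the gene's strand, with 250 bases before and 50 after the RefSeq start on GRCm38.p6. This is an older assembly than the one named for the counts, and its positions are used for these sequences only. Capitals mark matches on either strand to TTNNGNAA, a C/EBP-type pattern, or TGANTCA, the AP-1 pattern.
Sprr1a (chr3:92485832-92486131, minus strand): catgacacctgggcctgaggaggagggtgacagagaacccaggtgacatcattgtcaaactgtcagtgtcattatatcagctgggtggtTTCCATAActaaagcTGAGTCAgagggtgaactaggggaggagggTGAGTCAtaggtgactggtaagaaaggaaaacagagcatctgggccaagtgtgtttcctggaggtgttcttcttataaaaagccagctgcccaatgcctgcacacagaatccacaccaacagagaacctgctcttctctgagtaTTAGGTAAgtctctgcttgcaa
Lor (chr3:92083093-92083392, minus strand): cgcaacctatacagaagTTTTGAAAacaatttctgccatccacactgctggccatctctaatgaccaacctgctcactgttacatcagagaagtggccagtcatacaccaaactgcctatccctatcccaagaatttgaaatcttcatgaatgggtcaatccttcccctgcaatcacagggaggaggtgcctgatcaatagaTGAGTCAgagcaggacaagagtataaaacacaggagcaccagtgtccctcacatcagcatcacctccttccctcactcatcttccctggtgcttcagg
Ivl (chr3:92573686-92573985, minus strand): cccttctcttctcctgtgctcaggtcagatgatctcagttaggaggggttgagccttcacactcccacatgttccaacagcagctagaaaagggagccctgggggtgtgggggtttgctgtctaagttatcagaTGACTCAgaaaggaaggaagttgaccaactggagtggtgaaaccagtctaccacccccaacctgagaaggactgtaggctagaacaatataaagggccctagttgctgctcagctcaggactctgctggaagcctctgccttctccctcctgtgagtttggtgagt
Lce1g (chr3:92752289-92752588, minus strand): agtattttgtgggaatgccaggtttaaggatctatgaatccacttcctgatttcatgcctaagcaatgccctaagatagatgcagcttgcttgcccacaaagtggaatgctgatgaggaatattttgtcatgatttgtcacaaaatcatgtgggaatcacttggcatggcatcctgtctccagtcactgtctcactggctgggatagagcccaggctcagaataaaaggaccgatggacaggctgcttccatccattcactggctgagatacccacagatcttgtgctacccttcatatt
Lce3c (chr3:92944236-92944535, plus strand): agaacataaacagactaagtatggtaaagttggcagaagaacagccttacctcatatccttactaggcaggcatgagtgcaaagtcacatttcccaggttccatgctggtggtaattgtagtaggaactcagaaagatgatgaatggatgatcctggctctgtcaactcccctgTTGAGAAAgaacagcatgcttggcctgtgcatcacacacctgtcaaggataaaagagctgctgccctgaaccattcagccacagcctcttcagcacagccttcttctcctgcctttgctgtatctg

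RefSeq gave 59 promoters for 52 of the 57 members. TTNNGNAA was found in 33 of these 59 (55.9%) and in 40.7% of all 32851 promoters of the same length, and TGANTCA in 22 of 59 (37.3%) and in 7.81% of all promoters. The families differed in what they held. The AP-1 pattern was present in 9 of 12 Sprr promoters, 4 of 6 filaggrin-type promoters, 7 of 13 other envelope promoters and 2 of 11 S100 promoters, and matched in 0 of 17 Lce promoters. TTNNGNAA was present in 10 of 12 Sprr, 5 of 6 filaggrin-type, 10 of 13 other envelope and 2 of 11 S100 promoters. It matched in all 6 Lce3 promoters and in 0 of 11 Lce1 promoters. Copies of a family arose by duplication and share promoter sequence, so these counts are not independent. Some genes, such as Dmkn, Cdsn and S100a3, are also counted with several promoters. The S100 matches to TTNNGNAA all lie in promoters of S100a3. A match describes letters only, and its part in any change was not tested.

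Filaggrin-type genes encode large repetitive proteins that bundle keratin filaments or join the envelope, and 5 of the 6 fell while Crnn rose (median log2 fold change -1.28). Tchh (ENSMUSG00000052415), trichohyalin of the hair root sheath, had 37.1, 41.2 and 35.1 CPM in the knockout libraries, against 99.2, 90 and 94.4 CPM in the wild type libraries. It fell by 1.32 ± 0.07 log2 units (SE, edgeR adjusted p = 4.43e-10), and no knockout library came near a wild type library. Rptn, repetin, had 12.1, 20.2 and 16.3 CPM in knockout libraries and 35, 35.9 and 38.2 CPM in wild type libraries (log2 fold change -1.17). Flg (ENSMUSG00000102439), whose product is the main filament-bundling protein of the cornified layer, had 8.74, 11.6 and 7.34 CPM in knockout libraries and 25.2, 19.2 and 21.2 CPM in wild type libraries. It fell by 1.25 ± 0.15 log2 units (edgeR adjusted p = 4.98e-06). Its relative Flg2 stood at 0.355 ± 0.199 CPM in knockout and 1.36 ± 0.55 CPM in wild type cells (log2 fold change -1.92).

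Hrnr, hornerin, fell furthest of this family. Its level was 0.284, 0.293 and 0.0233 CPM in the knockout libraries, against 4.27, 3.89 and 3.65 CPM in the wild type libraries. The log2 fold change of -4.26 ± 0.40 (edgeR adjusted p = 1.92e-06) rests on 27, 29 and 2 counts in knockout libraries, so its exact size is poorly bounded. Within each library the ratio of Hrnr to Flg counts, which needs no scaling, was 0.0325, 0.0253 and 0.00317 in knockout and 0.169, 0.202 and 0.172 in wild type libraries. This and the other ratios below were chosen after the values were seen and carry no test. Crnn, cornulin of squamous epithelia, was the only member outside the S100 family to rise, with 2.13, 3.29 and 1.83 CPM in knockout libraries and 1.75, 1.51 and 1.58 CPM in wild type libraries. Its rise of 0.59 ± 0.22 log2 units (edgeR adjusted p = 0.0348) was not called without knockout replicate 5 (0.30, edgeR adjusted p = 0.286), without wild type replicate 2 (0.54, adjusted p = 0.0924) or without wild type replicate 3 (0.57, adjusted p = 0.104).

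**Figure D2:**
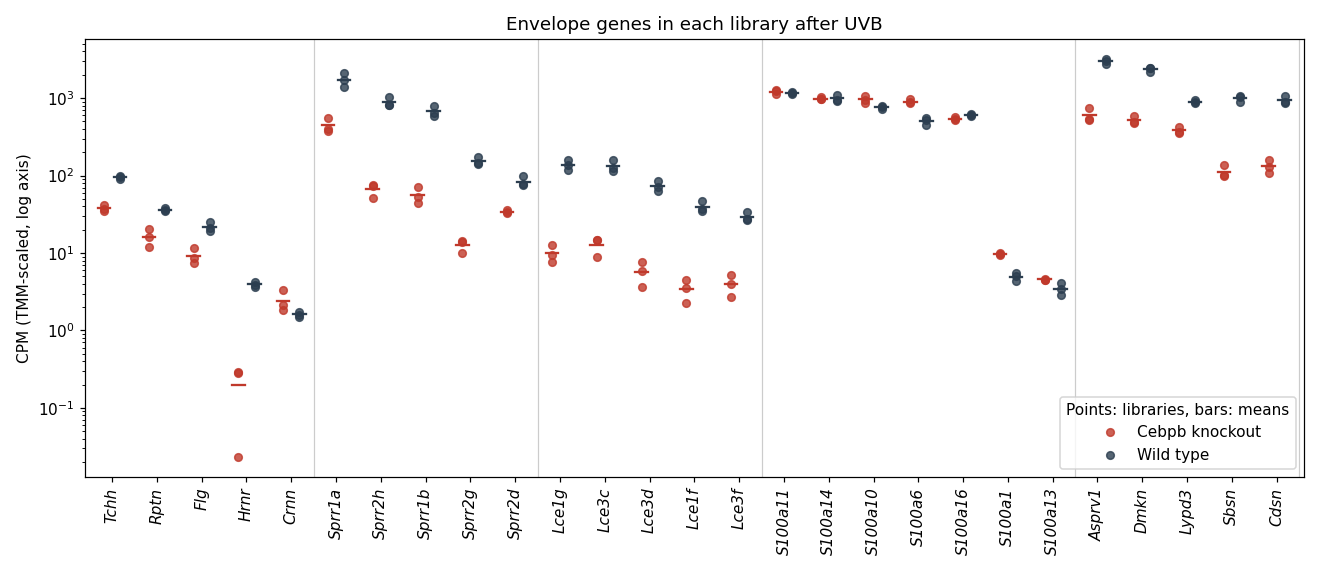
CPM per library on a log axis for the 5 most abundant tested genes of each family and any other gene called higher, with points for libraries and short bars for means, and with grey lines between filaggrin-type, Sprr, Lce, S100 and other envelope genes. Sprr, Lce and other envelope genes lie lower in all 3 knockout libraries than in any wild type library, whereas S100 genes lie close together or higher.

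Sprr genes encode short cross-linking proteins that bridge other envelope proteins and are also induced in stressed epithelia, and all 13 fell, by a median of -1.96 and over a range of -3.74 to -0.70 log2 units. Sprr1a (ENSMUSG00000050359) had 381, 555 and 400.3 CPM in the knockout libraries, against 2090, 1706 and 1397 CPM in the wild type libraries. It fell by 1.96 ± 0.19 log2 units (edgeR adjusted p = 6.93e-05). Its paralog Sprr1b (ENSMUSG00000048455), had 44.7, 70.1 and 52.6 CPM in knockout libraries and 791, 649.6 and 585 CPM in wild type libraries. This log2 fold change of -3.60 ± 0.19 (edgeR adjusted p = 1.92e-06) amounts to a 12.1-fold fall, against 3.89-fold for Sprr1a. The ratio of Sprr1b to Sprr1a counts was 0.117, 0.126 and 0.132 in knockout and 0.378, 0.381 and 0.419 in wild type libraries, so the make-up of the pair differed as well as its amount.

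Sprr2 genes were just as uneven. Sprr2h (ENSMUSG00000046259) had 50.7, 74.8 and 73 CPM in the knockout libraries, against 1026, 810.2 and 812 CPM in the wild type libraries (-3.74 ± 0.17, edgeR adjusted p = 6.04e-07). Sprr2g had 10.1, 13.7 and 14.4 CPM in knockout libraries and 173, 141 and 143 CPM in wild type libraries (-3.58 ± 0.13, edgeR adjusted p = 1.42e-09). Sprr2d was less affected, with 32.4, 36.2 and 33.5 CPM in knockout libraries and 98.5, 77 and 74.4 CPM in wild type libraries (-1.29 ± 0.09, edgeR adjusted p = 1.33e-08). The ratio of Sprr2h to Sprr2d counts was 1.57, 2.07 and 2.18 in knockout and 10.4, 10.5 and 10.9 in wild type libraries. The log2 fold change was -2.58 for Sprr2i, -2.32 for Sprr2k, -2.03 for Sprr2a1, -1.58 for Sprr2e, -1.41 for Sprr2b and -0.70 for Sprr2f. Sprr3 and Sprr4, each under 2 CPM in every library, had -0.86 and -1.68.

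Near-identical copies could exchange reads, so shared sequence was counted. Of all 150-base windows in the GENCODE M21 transcripts of Sprr2a1, 89.6% also occur in another gene (Sprr2a2 or Sprr2a3), and its value is uncertain. No window of the other Sprr2 genes, of Sprr1a or Sprr1b, or of the Lce1 genes occurs unchanged in another gene. Only exact matches over all 150 bases were counted, so copies that differ by a few bases could still exchange reads. The single values and ratios of these genes are therefore not cleared by this count. Lce3c, Lce3d, Lce3e and Lce3f share 15.1%, 3.22%, 29.5% and 36.8% of their windows, mainly with each other. Outside these families, S100a4 shares 35.3%, S100a11 24.9% and Sbsn 3.30% of their windows with other genes, including pseudogenes and an antisense RNA. Summed into 1 feature each, the log2 fold change was -3.12 ± 0.12 for Sprr2, -3.55 ± 0.20 for Lce1 and -3.31 ± 0.25 for Lce3 genes, against medians of -2.03, -3.10 and -2.85 over the single genes. Repeats inside a gene were not examined, and Hrnr, for example, held only 5263 distinct windows over 11187 bases of exon. Among the 49 members with no shared window, 42 fell, 5 rose and 2 were not called.

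Lce genes encode small glycine- and cysteine-rich proteins that are added late to the envelope, and all 18 fell, the deepest family by median (-2.92 log2 units, range -5.41 to -1.62). Of the 18, 17 fell by at least 2 log2 units. Lce1g (ENSMUSG00000027919) had 7.63, 9.53 and 12.8 CPM in the knockout libraries, against 157, 119 and 138 CPM in the wild type libraries (-3.79 ± 0.19, edgeR adjusted p = 7.42e-07). Lce1f had 2.25, 4.42 and 3.52 CPM in knockout libraries and 46.2, 36.7 and 35.3 CPM in wild type libraries, an 11.6-fold fall. Lce1i fell most of all members, with 0.452, 0.726 and 0.617 CPM in knockout libraries and 30.7, 20.2 and 25.5 CPM in wild type libraries (-5.41 ± 0.19, edgeR adjusted p = 2.42e-12). Its paralog Lce1h stood at 4.19 ± 0.978 CPM in knockout and 25.8 ± 5.55 CPM in wild type cells (-2.62 ± 0.19). Counts of Lce1i relative to Lce1h were 0.143, 0.168 and 0.121 in knockout and 0.992, 1.02 and 0.963 in wild type libraries.

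Lce1l had a log2 fold change of -5.11 ± 0.43, but it had 2, 22 and 4 counts in knockout libraries against 440, 347 and 349 counts in wild type libraries, and the value became -6.66 without knockout replicate 5. In human skin, LCE3 genes are tied to barrier repair. Lce3c (ENSMUSG00000045475) had 8.78, 14.9 and 14.6 CPM in knockout libraries and 157, 115 and 124 CPM in wild type libraries (-3.37 ± 0.22, edgeR adjusted p = 6.82e-06). Lce3d had 3.6, 7.56 and 5.91 CPM in knockout libraries and 85.6, 62.9 and 71.8 CPM in wild type libraries. Lce3f had 2.73, 5.26 and 3.97 CPM in knockout libraries and 34, 27 and 27.1 CPM in wild type libraries. The remaining 3 Lce3 genes had log2 fold changes between -2.82 and -2.45, and no Lce gene overlapped between genotypes.

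**Figure D3:**
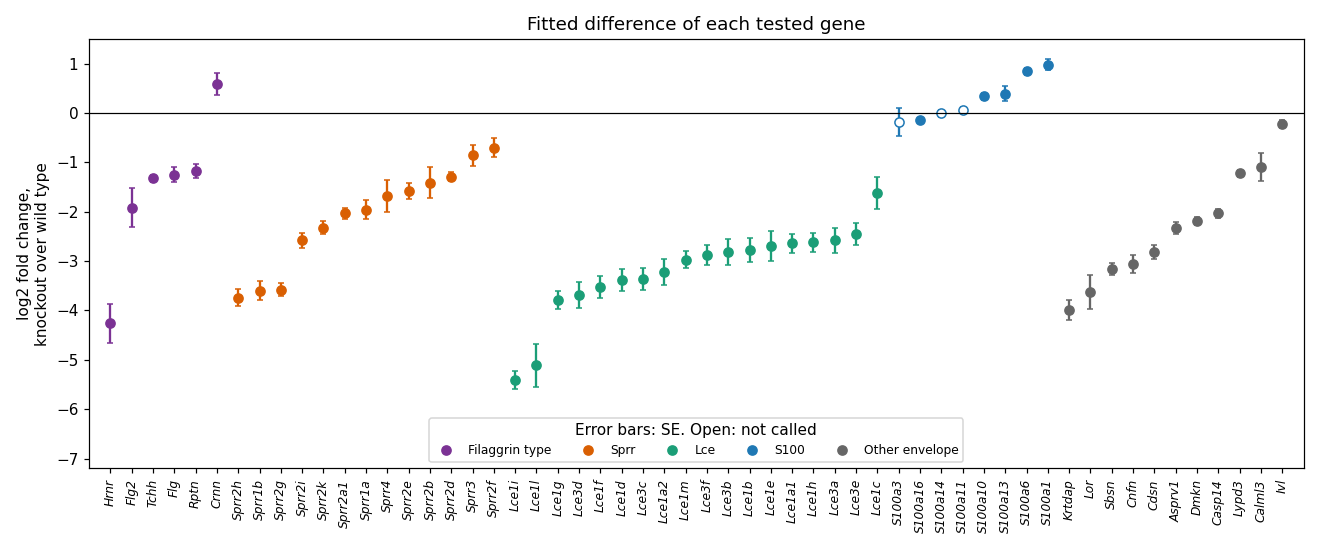
Fitted log2 fold change, knockout over wild type, of the 56 tested genes, sorted within each family, with bars for its SE and open circles for genes not called. All Sprr and Lce genes lie below 0, S100 genes lie between -0.19 and 0.98, and Ivl lies at -0.23, apart from the other envelope genes.

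The S100 members were not lower as a group, though 3 other S100 genes of the complex, S100a7a, S100a8 and S100a9, fell. Of 8 tested members, 4 rose and 1 fell, while 3 were not called (median log2 fold change 0.20). Among all genes tested, 24.8% rose and 23.7% fell. S100a6 (ENSMUSG00000001025), calcyclin of proliferating cells, had 852, 879 and 973 CPM in the knockout libraries, against 557, 513 and 443 CPM in the wild type libraries, and rose by 0.84 ± 0.08 log2 units (edgeR adjusted p = 1.77e-07). S100a10, the partner of annexin A2, had 869, 939 and 1071 CPM in knockout libraries and 794, 716 and 769 CPM in wild type libraries (0.34 ± 0.07, edgeR adjusted p = 8.96e-04). S100a1, better known from heart muscle, was scarce at 9.29, 9.83 and 10.1 CPM in knockout libraries and 5.01, 4.32 and 5.47 CPM in wild type libraries, and rose by 0.98 ± 0.12 (edgeR adjusted p = 6.43e-06). These 3 rises were called under every alternative run.

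S100a13 had 4.44, 4.67 and 4.54 CPM in knockout libraries and 4.11, 3.46 and 2.87 CPM in wild type libraries. Its rise of 0.39 ± 0.15 (edgeR adjusted p = 0.0475) was not called with DESeq2 size factors (adjusted p = 0.055), with the DESeq2 test (0.0574), with no filter on low counts (0.0533), or without wild type replicate 2 or 3 or knockout replicate 4, 5 or 6 (adjusted p between 0.0781 and 0.212). S100a11 (ENSMUSG00000027907), an abundant partner of annexin A1, had 1128, 1219 and 1260 CPM in knockout libraries and 1184, 1121 and 1146 CPM in wild type libraries, and its groups overlapped (0.06 ± 0.06, edgeR adjusted p = 0.384). S100a14 had 958, 963 and 1036 CPM in knockout libraries and 951, 923 and 1102 CPM in wild type libraries (-0.01 ± 0.07, edgeR adjusted p = 0.923). S100a3 was not called at about 1 CPM (-0.19 ± 0.28, edgeR adjusted p = 0.611). S100a16 had 519.6, 541 and 565 CPM in knockout libraries and 605, 584 and 618 CPM in wild type libraries and fell by 0.15 ± 0.05 (edgeR adjusted p = 0.0299). That call was lost among genes of at least 1 CPM (adjusted p = 0.0511) and without wild type replicate 1 or 3 or knockout replicate 4 or 5 (adjusted p between 0.0528 and 0.124).

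Scaling matters for these small differences. When counts were scaled by library totals instead, a shift of 0.20 log2 units in the median gene, S100a11 was called higher (0.26, edgeR adjusted p = 2.76e-04), S100a14 was called higher (0.19, adjusted p = 0.0144), and S100a16 was not called (0.05, adjusted p = 0.461). The ratio of S100a6 to S100a11 counts, which needs no scaling, was 0.755, 0.721 and 0.772 in knockout and 0.470, 0.458 and 0.387 in wild type libraries.

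Among the other envelope genes all 11 fell, over a range of -3.99 (Krtdap) to -0.23 (Ivl) log2 units, and involucrin and loricrin lay far apart within it. Ivl (ENSMUSG00000049128), involucrin, an early scaffold of the envelope, had 24.4, 25 and 26.5 CPM in the knockout libraries, against 30.8, 27.4 and 30.8 CPM in the wild type libraries. Its fall of 0.23 ± 0.08 log2 units (edgeR adjusted p = 0.0282) was not called with library totals (-0.03, adjusted p = 0.787), or without wild type replicate 1 or 3 or knockout replicate 4 or 5 (adjusted p between 0.0701 and 0.0978). Lor (ENSMUSG00000043165), loricrin, the chief protein of the mature envelope, had 7.29, 11 and 3.84 CPM in knockout libraries and 97.4, 86.3 and 91.6 CPM in wild type libraries. It fell by 3.63 ± 0.35 log2 units (edgeR adjusted p = 1.39e-04). Counts of Lor relative to Ivl were 0.299, 0.441 and 0.145 in knockout and 3.16, 3.15 and 2.98 in wild type libraries.

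The other 9 genes of this group lie outside the complex. Asprv1 (ENSMUSG00000033508), on chromosome 6, encodes a retroviral-like protease that cleaves profilaggrin. It had 521, 738 and 536 CPM in the knockout libraries, against 3211, 2783 and 3014 CPM in the wild type libraries (-2.33 ± 0.13, edgeR adjusted p = 3.13e-07). Casp14, on chromosome 10, a caspase of cornification that also degrades filaggrin, stood at 14.8 ± 1.11 CPM in knockout and 60.4 ± 5.04 CPM in wild type cells (log2 fold change -2.03). Cdsn (ENSMUSG00000039518), on chromosome 17, encodes corneodesmosin, the glue of cornified cells. It had 127, 160 and 108 CPM in knockout libraries and 1056, 887 and 855 CPM in wild type libraries, a 7.07-fold fall. Calml3, a calmodulin-like gene on chromosome 13, stood at 1.05 ± 0.412 CPM in knockout and 2.27 ± 0.656 CPM in wild type cells (-1.10 ± 0.28, edgeR adjusted p = 0.00336).

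Dmkn, Sbsn and Krtdap, secreted proteins of the upper epidermis, are encoded together on chromosome 7. Dmkn (ENSMUSG00000060962), dermokine, had 475, 579.7 and 497 CPM in the knockout libraries, against 2471, 2165 and 2447 CPM in the wild type libraries (-2.19 ± 0.08, edgeR adjusted p = 2.2e-12). Sbsn, suprabasin, had 97.8, 137 and 102 CPM in knockout libraries and 1068, 901 and 1040 CPM in wild type libraries, an 8.94-fold fall. Krtdap, keratinocyte differentiation-associated protein, stood at 11.3 ± 3.45 CPM in knockout and 179.7 ± 11.4 CPM in wild type cells, a 15.9-fold fall. Lypd3 and Cnfn, also on chromosome 7, fell as well. Lypd3, a membrane-anchored protein of suprabasal cells, had 357, 424 and 365 CPM in knockout libraries and 934, 856 and 887 CPM in wild type libraries (-1.22 ± 0.07, edgeR adjusted p = 4.66e-10), and Cnfn, cornifelin, fell 8.35-fold. The 9 members off chromosome 3 all fell, with a median log2 fold change of -2.33, beside -2.62 for the 39 members on chromosome 3 outside the S100 family.

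Per kilobase of exon, which allows genes to be compared with each other, 9 members were among the 100 highest of 17582 ranked genes in wild type cells and 6 in knockout cells. In knockout cells these were S100a11 (2353 CPM per kb, rank 8), S100a10, S100a6, S100a14, Sprr1a (552 CPM per kb, rank 70) and Asprv1 (387 CPM per kb, rank 100). In wild type cells S100a11 (2251 CPM per kb, rank 11) was followed by Sprr1a (2148 CPM per kb, rank 13), Asprv1 (rank 18), Sprr2h (rank 30) and Dmkn (rank 33). Sprr2h ranked 541 and Dmkn 167 in knockout cells. Lor ranked 6855 in knockout and 1116 in wild type cells. Among members, the order of levels thus turned towards S100 genes in knockout cells.

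The genes were then laid out in their order on chromosome 3, taken from GENCODE M21, together with other named genes of the complex and named genes on both flanks. Genes between the 2 S100 groups, running from Pglyrp4 to Tchhl1, were lower almost without a break. Of 52 listed there 50 were tested, of which 48 fell, Crnn rose and Lce6a was not called (median log2 fold change -2.56). Among the 12 tested S100 genes, non-members included, 4 fell, 4 rose and 4 were not called (median -0.08). On the flank beside S100a1, 4 of 15 genes rose, 2 fell and 9 were not called (median 0.13). On the flank beside S100a10, 2 of 11 tested genes rose, 5 fell and 4 were not called (median -0.22). Among all genes tested, 24.8% rose and 23.7% fell. With library totals, calls among all 26 tested flanking genes were 6 lower and 16 higher in place of 7 and 6. S100a11 and S100a10 lie next to Tchhl1 and Tchh, which both fell. S100a8 and S100a9, the calprotectin genes, lie near S100a6 and had log2 fold changes of -4.14 and -2.22.

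Other genes of envelope assembly were tested too, where 23.7% of all genes tested were called lower and 24.8% higher. Of 18 cross-linking and scaffold genes, 15 fell and 3 were not called (median -1.03). Tgm1, the membrane-bound transglutaminase that joins envelope proteins, stood at 64.7 ± 8.87 CPM in knockout and 414 ± 28.4 CPM in wild type cells (log2 fold change -2.68 ± 0.09, edgeR adjusted p = 1.8e-12). Ppl, the plaque protein periplakin on which the envelope is first laid down, had -1.40 and the desmosomal cadherin gene Dsc3 -1.32. Differentiation keratins fell in 5 of 5 tested, with -1.66 for Krt80, -2.88 for Krt78 and -1.96 for Krt1. Of 16 tested genes of filaggrin processing, 9 fell, 4 rose and 3 were not called (median -0.61). The share of this list that rose was close to the share over all genes tested. The protease inhibitor gene Spink5 had -1.72, the channel-activating protease gene Prss8 -1.34 and the kallikrein gene Klk5 -2.95.

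Transcription factors known to act on the complex were mostly lower, with 16 of 23 lower, 3 higher and 4 not called (median -0.65). Among all genes tested, 23.7% were lower and 24.8% higher. That list holds the deleted Cebpb. Grhl1 stood at 41.2 ± 4.02 CPM in knockout and 270.4 ± 3.12 CPM in wild type cells, and Ovol1, a zinc finger gene of epidermal differentiation, at 43.2 ± 4.24 CPM in knockout and 244 ± 34.6 CPM in wild type cells (-2.50 ± 0.10, edgeR adjusted p = 9.47e-11). The 3 that rose, named after their values were seen, were Grhl2 (0.39), Ovol2 (0.46) and Nfe2l2 (0.31). Those not called were Cebpd, Vdr, Gata3 and Junb.

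Members called lower also varied together from library to library within a genotype. The same count was not made over all genes tested. Among the 48 members called lower, wild type replicate 1 was the highest wild type library in 39 and knockout replicate 5 the highest knockout library in 37, while knockout replicate 4 was the lowest in 36. The summed level of members outside the S100 family was 2305, 3078 and 2424 CPM in knockout libraries and 14590, 12368 and 12722 CPM in wild type libraries, so this spread was small beside the gap between genotypes. Leaving out knockout replicate 5 moved the median log2 fold change of the tested members to -2.48, and leaving out knockout replicate 4 moved it to -2.22.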

How the data were processed

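The authors deposited a single table of whole-number counts by gene and library. The submitters' processing notes name STAR, HTSeq, FastQC and DESeq2, and the builds mm39 and GRCm39. Tool versions, annotation, strand setting and the handling of reads matching several genes: not given in the sources used here, so values of genes that overlap on either strand are uncertain. Symbols matched 52083 of 55416 identifiers, and the rest stayed in the tests. Members, lists, ratios and promoters to print were chosen with earlier results of these data known.

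The test was the quasi-likelihood test of edgeR 4.0.16 (R 4.3.3, robust fit) across the deposited table, modelling genotype alone, filterByExpr (minimum 10 counts), TMM scaling and Benjamini-Hochberg adjustment over 17659 genes. A gene was called at an adjusted p under 0.05. "Rose" and "fell" mean called. Each SE was taken as the absolute log2 fold change divided by the root of F. Levels in CPM use TMM-scaled library sizes, and exon lengths come from GENCODE M21 (GRCm38). Values per library are given for the 5 most abundant tested members of each family and for any called higher. Lce1i, Lor and Ivl do not meet this rule and were added for their fold changes, as were the counts of Lce1l. Of each pathway list, the 3 called genes with the smallest p are named, with means or fold changes. No library repeated another: chi-square per degree of freedom lay between 19.7 and 46.9 for pairs within a genotype (genes averaging 50 counts or more). On simulated counts the script called 100% of changes of 1 log2 unit and 71% of changes of 0.5. That simulation used 1 fixed spread and far fewer changed genes, so it does not measure performance on these data. Alternatives were DESeq2 size factors and test (DESeq2 1.42.0), library totals, other filters, leaving out each library, summed subfamilies and, chosen after the data were seen, only members with no shared 150-base window.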

Additional observations from a re-analysis of the deposited data

How the results depend on the processing

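The count of members called lower was 48 and ranged between 43 and 48 over the alternatives run, and 42 of 49 members with no shared window were lower. The 43 came from the filter at a mean of 1 CPM. It left Flg2, Sprr2b, Sprr4 and Lce1c untested, and S100a16 lost its call. With library totals in place of TMM, 2452 genes of the whole table were called lower in place of 4192, the share of calls that were higher moved to 72.5% beside 51.1%, and the median of the tested members became -2.12. By the same scaling S100a14 turned to 0.19 and S100a16 to 0.05. Leaving out single libraries gave 3 to 5 members called higher (5 with all libraries), 46 to 48 called lower and medians between -2.48 and -2.22, with 3 called higher without wild type replicate 2 or 3 or knockout replicate 5. Over single members, 588 refitted values kept their call, with sign changes only in S100a3 and S100a14, which were not called. With library totals S100a11 and S100a14 gained a call and S100a16 lost one with its sign turned, and the other 21 lost calls concerned Crnn, S100a13, S100a16 and Ivl. Summing the Sprr2 genes gave -3.12, beside a median of -2.03 over single genes. Sprr2h, at -3.74, made up 883 of the 1266 CPM of that sum in wild type cells. Among pathway lists, library totals moved the calls higher to 16 of the flanking genes, 2 of the cross-linking genes and 5 of the transcription factors. The cause of the moves under other scalings, filters and left-out libraries was not tested beyond the shift of all genes given in the report. No paired analysis was possible because the labels number the libraries 1 to 6 and the genotypes share no number. Sequence identity of proteins was not run. Depth limits Hrnr, Lce1l and S100a4, where knockout libraries hold few counts.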

Other observations

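Named genes of the complex outside the 57 were mostly lower: of 15 tested, 13 fell and 2 were not called (median log2 fold change -1.74). Among all genes tested, 23.7% fell. The 13 are listed here in part. By the smallest p, these were led by Sprr2a3, at 17.4 ± 0.636 CPM in knockout and 111 ± 6.34 CPM in wild type cells, S100a8, at 2.75 ± 0.428 CPM in knockout and 48.6 ± 6.55 CPM in wild type cells, and Sprr2a2, which fell by 2.04. Sprr2a2 and Sprr2a3 share sequence with Sprr2a1, so their single values are uncertain. Picked after its values were seen, Crct1, a cysteine-rich gene among the Lce genes, stood at 101 ± 20.4 CPM in knockout and 1043 ± 131 CPM in wild type cells, and fell by 3.37 ± 0.16 log2 units (edgeR adjusted p = 5.32e-07). Kprp, keratinocyte proline-rich protein, also picked so, stood at 5.62 ± 1.06 CPM in knockout and 134 ± 32.2 CPM in wild type cells.

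Peptidyl arginine deiminases citrullinate proteins, and citrullination of filaggrin loosens it from keratin. Padi1, Padi2 and Padi3 did not move with the filaggrin-type genes that fell. Padi2 stood at 9.97 ± 1.86 CPM in knockout and 1.07 ± 0.474 CPM in wild type cells and rose by 3.22 ± 0.27 log2 units (edgeR adjusted p = 1.05e-06), Padi1 rose by 1.39 and Padi3 by 1.03, while Padi4 fell by 1.35. These genes were singled out after their values were seen. With the matriptase gene St14 (0.47), Padi1, Padi2 and Padi3 are the 4 of 16 tested genes of filaggrin processing that rose. That share is close to the 24.8% of all genes tested that rose. On the flanks of the complex the called genes with the smallest p were Slc27a3, which rose to 11.1 ± 1.80 CPM in knockout cells against 3.94 ± 0.548 CPM in wild type cells, Tuft1, which fell by 0.58, and Ilf2, which rose by 0.54.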
